A study of Mus musculus with 5 samples.

Results

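The homing and egress receptors of PCs were examined in bone marrow (BM) PCs before and after culture. They comprised 9 genes, the chemokine receptors Cxcr4, Cxcr3, Cxcr5, Ccr2, Ccr7, Ccr9 and Ccr10 and the sphingosine-1-phosphate (S1P) receptors S1pr1 and S1pr4, of 18193 genes named on the array. Every probe set whose only platform symbol is 1 of these genes was taken, which gave 16 probe sets. A probe set is a group of short array probes that report 1 transcript, and its level is given as the log2 of its deposited intensity.

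These receptors are G protein-coupled proteins that turn gradients of a ligand into directed movement. Cxcr4 binds Cxcl12, which is made by BM stromal cells, and is the main receptor for homing of PCs to the BM and for their retention there. Cxcr3 responds to interferon-induced chemokines at inflamed sites, Ccr9 and Ccr10 draw antibody-secreting cells to the gut and other mucosae, and Cxcr5 and Ccr7 place B and T cells within lymphoid organs. Ccr2 releases monocytes from the BM, and S1pr1 carries lymphocytes into blood and lymph along S1P gradients. S1pr4 is a lymphoid S1P receptor of less clear function.

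All PCs came from the BM of C57BL/6J mice that had been primed with NP-CCG (spelled as labelled) in incomplete Freund's adjuvant and boosted 2 times. Cells bearing B220 or CD49b were depleted with magnets, and CD138high cells were then enriched. Ex vivo PCs (2 arrays, 1 from each of 2 experiments) went straight to RNA. Cultured PCs (3 arrays, 1 from experiment 1 and 2 from experiment 2) were first kept for 3 days with the murine stromal cell line ST2 and the BCMA ligand APRIL, a PC survival cytokine, at physiological oxygen, and were sorted by flow cytometry. The sort was thus applied to cultured PCs alone, and culture, sort, ST2 cells and APRIL cannot be told apart in this design. The labels give no age and do not say whether animals were pooled or whether the 2 cultured arrays of experiment 2 came from separate cultures. If they did not, p-values measure in part a technical spread.

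PC markers gave signal on all 5 arrays. None of the 9 tested PC markers passed the test for culture, with or without the experiment in the model. Of all 13578 tested genes, 1.13% were called as higher and 0.611% as lower with it, and 0.0147% and 0.0442% without it. At such shares 0 of 9 does not set the PC markers apart. Among the 9 were Sdc1, which encodes CD138, and the PC transcription factors Irf4 and Xbp1. The summed intensity of the 9 was between 56743 and 61815 on the 5 arrays. Within experiments, 5 of the 9 were lower on every cultured array than ex vivo, against 4032 of 13578 tested genes. With culture in the model, 3 of the 9 were called as higher in experiment 2, against 1494 of all genes. Stromal markers did move with culture, with a summed intensity of 1255 and 1120 ex vivo, 5971 after culture in experiment 1, and 18103 and 17909 in experiment 2. For Actb, the 3' control probe set minus the 5' one, a sign of RNA quality, gave log2 values of 0.31 and 0.77 on the arrays of experiment 1 and from -0.12 to -0.01 on those of experiment 2, so that it moved with the experiment. In bulk RNA, fewer cells of a type and less RNA per cell cannot be told apart.

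Of the 16 receptor probe sets, 13 reached an intensity of 50 (5.64 on the log2 scale), the floor used throughout, on at least 2 arrays and were tested, at least 1 for each gene. Of these, 11, from 7 genes, reached it on all 5 arrays. The exceptions were Ccr7 and S1pr1, which were under it on both arrays of experiment 1. The other 3 probe sets, all for Ccr2, were under it on every array.

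**Figure D1:**
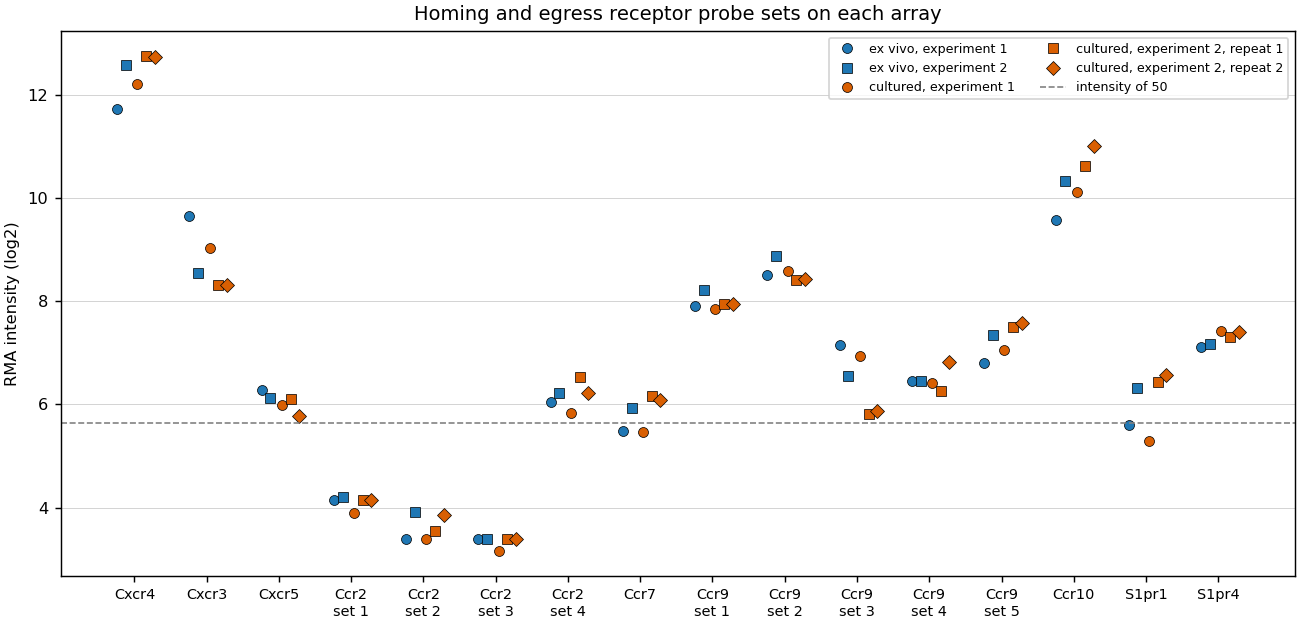
Log2 RMA intensity of each of the 16 receptor probe sets on the 5 arrays. Colour marks ex vivo or cultured PCs, marker shape the experiment and repeat, and the dashed line an intensity of 50; sets of 1 gene are numbered in the order of their identifiers. Levels of different probe sets are not comparable. The 3 lowest Ccr2 sets lie under the line on every array, and Cxcr4 lay between 11.73 and 12.75.

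Cxcr4, the BM homing receptor, kept a bright signal on every array. Its level (1448710_at) was 11.73 ex vivo and 12.21 after culture in experiment 1, and 12.59 ex vivo and 12.75 and 12.74 after culture in experiment 2. Each cultured array was above the ex vivo array of its own experiment, by 0.47, 0.17 and 0.16, but the groups overlapped because the ex vivo array of experiment 2 was above the cultured array of experiment 1. The cultured minus ex vivo difference was 0.41 ± 0.32 (SE, limma, adjusted p = 0.890) over all 5 arrays. With the experiment in the model it was 0.30 ± 0.12, a 1.23-fold higher level, which missed the threshold (95% interval -0.01 to 0.60, adjusted p = 0.279).

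Ccr10, the receptor for the chemokines Ccl27 and Ccl28, had the largest positive difference of the 13 probe sets. Its level (1421420_at) was 9.57 ex vivo and 10.13 after culture in experiment 1, and 10.33 ex vivo and 10.62 and 11.01 after culture in experiment 2. Culture was higher within each pair, by 0.55, 0.29 and 0.68, while the groups overlapped across experiments. The difference of 0.63 ± 0.35 (SE, adjusted p = 0.847) became 0.51 ± 0.15 with the experiment in the model (1.43-fold, 95% interval 0.14 to 0.88), and its adjusted p of 0.162 missed the threshold.

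Cxcr3, the receptor for Cxcl9, Cxcl10 and Cxcl11, had lower values in culture. Its level (1449925_at) was 9.65 ex vivo and 9.03 after culture in experiment 1, and 8.55 ex vivo and 8.31 and 8.32 after culture in experiment 2. The pairs differed by -0.62, -0.24 and -0.23, and all 3 arrays of experiment 2 were below both of experiment 1. The difference with the experiment in the model was -0.40 ± 0.13 (SE, 95% interval -0.72 to -0.08, adjusted p = 0.200), and without it -0.55 ± 0.41 (adjusted p = 0.884).

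Ccr9, the receptor for the gut and thymus chemokine Ccl25, is represented by 5 probe sets that disagreed. The brightest of them, 1421920_a_at, was 8.52 ex vivo and 8.58 after culture in experiment 1, and 8.88 ex vivo and 8.42 and 8.44 after culture in experiment 2. Its pairs were mixed in sign, with a difference of -0.23 ± 0.15 (SE, adjusted p = 0.473) with the experiment in the model. The set 1427419_x_at, whose suffix marks probes that can match other transcripts, was 7.14 ex vivo and 6.93 cultured in experiment 1, and 6.56 ex vivo and 5.81 and 5.86 cultured in experiment 2. Its difference in the same model was -0.50 ± 0.15 (adjusted p = 0.170), the most negative of the 13. The set 1421919_a_at ranged from 7.86 to 8.22 and was lower in culture in all 3 pairs (-0.18 ± 0.11, adjusted p = 0.450). In contrast, 1442758_at ranged from 6.80 to 7.57 and was higher in culture in all 3 pairs (0.21 ± 0.11, adjusted p = 0.361). The last, 1436065_at, ranged from 6.26 to 6.82 with mixed pairs (0.03 ± 0.19, adjusted p = 0.953). A single direction for Ccr9 therefore cannot be given.

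The lymphoid organ receptors were dim. Cxcr5 (1422003_at), which leads B cells into follicles, was 6.28 and 6.12 ex vivo and 5.99, 6.11 and 5.78 after culture. All cultured arrays were below both ex vivo arrays, the nearest by 0.01, and the difference with the experiment in the model was -0.22 ± 0.14 (SE, adjusted p = 0.459). Ccr7 (1423466_at), which leads lymphocytes and dendritic cells to T cell zones, was 5.49 ex vivo and 5.46 cultured in experiment 1, and 5.94 ex vivo and 6.17 and 6.08 cultured in experiment 2 (0.10 ± 0.11, adjusted p = 0.709). Markers of B cells, which carry both receptors, and of B cell precursors had summed intensities of 9266 and 9490 ex vivo and 8484, 9295 and 8797 after culture. Behind that sum, 8 of the 11 tested markers were lower in all 3 pairs, against 4032 of all 13578 tested genes. With the experiment in the model 2 were called as lower, Dntt (-1.14, adjusted p = 0.0171) and Cd72 (-0.77, adjusted p = 0.0395), against 0.611% of all genes. The part of other cells in these levels was not tested.

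Ccr2 was measured only near the floor. Its tested probe set, 1460067_at, was 6.04 ex vivo and 5.84 after culture in experiment 1, and 6.22 ex vivo and 6.52 and 6.23 after culture in experiment 2. The difference was 0.00 ± 0.15 with the experiment in the model (SE, 95% interval -0.37 to 0.37, adjusted p = 0.998). The other 3 probe sets lay between 3.16 and 4.21 on all arrays. Monocyte and macrophage markers summed to 2151 and 1664 ex vivo and to 1992, 1903 and 1620 after culture, with Adgre1, Cd14 and Clec4a1 among those under the filter or not measured. The sum hides opposite moves. With the experiment in the model 4 of the 10 tested markers were called as lower and 1 as higher, with a median of -0.74. Of all 13578 tested genes, 0.611% were called as lower and 1.13% as higher. The complement gene C1qa was at least 3.38-fold lower in culture (adjusted p = 0.0389 without and 0.00303 with the experiment), as its cultured arrays were all under the floor. C1qa and C1qb had entered the test only through the ex vivo arrays, so their calls carry no weight in the count. The bright Cd68 rose by 0.89 (adjusted p = 0.0485) with the experiment in the model. The part of these cells in the Ccr2 signal was not tested.

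Of the S1P receptors, neither passed the test for culture. S1pr4 (1451024_at) was 7.10 and 7.17 ex vivo and 7.42, 7.31 and 7.40 after culture, so that every cultured array was above both ex vivo arrays. Its difference was 0.24 ± 0.12 (SE, adjusted p = 0.832) over the 5 arrays and 0.25 ± 0.11 with the experiment in the model (1.19-fold, adjusted p = 0.310). S1pr1 (1423571_at), the egress receptor itself, was 5.60 ex vivo and 5.29 after culture in experiment 1, and 6.32 ex vivo and 6.44 and 6.57 after culture in experiment 2. Its pairs differed by -0.31, 0.12 and 0.26, the first between values under the floor, and the difference was -0.02 ± 0.15 with the experiment in the model (95% interval -0.40 to 0.35, adjusted p = 0.954) and 0.14 ± 0.47 without it.

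**Figure D2:**
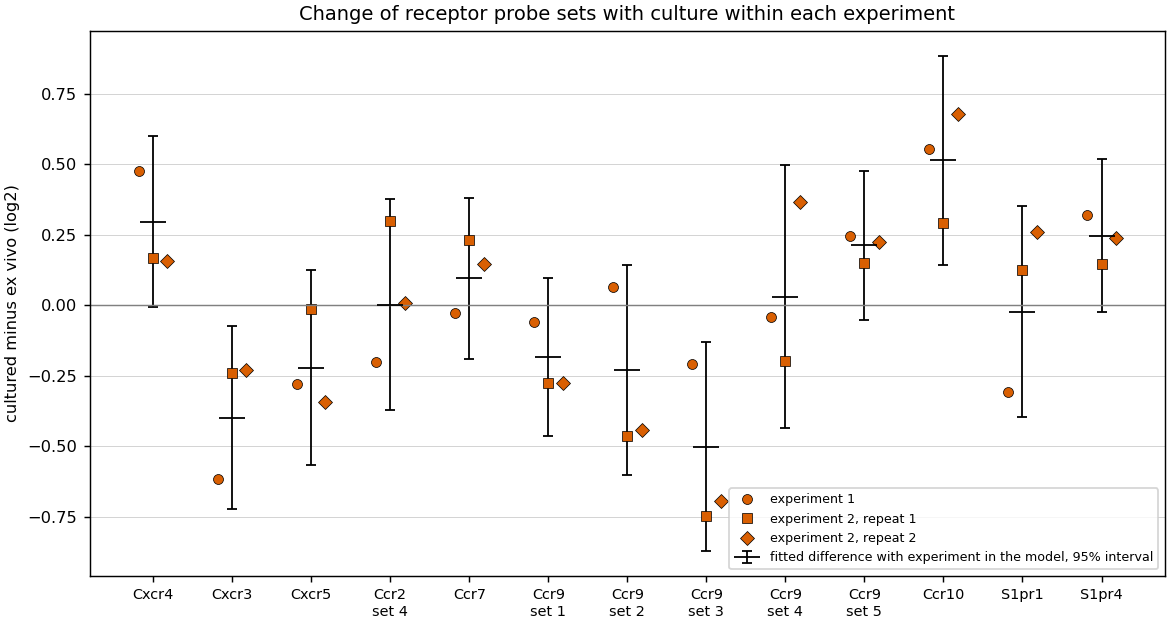
Cultured minus ex vivo log2 difference of the 13 tested receptor probe sets. Points are the single pairs within each experiment, horizontal marks the limma difference with the experiment in the model, and bars its 95% interval. Ccr10 has the highest and Ccr9 set 3 the lowest mark, at 0.51 and -0.50, and every interval ends within 1 log2 unit of 0. Those of Ccr7 and S1pr1 rest in part on values under the floor.

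Across the receptors, culture was called for 0 of 13 probe sets over all 5 arrays by limma at an adjusted p under 0.05, against 0.0459% of the 30477 probe sets tested. With the experiment in the model it was again 0 of 13, against 1.80%. At an unadjusted p under 0.05 the counts were 0 of 13 (6.59% of all) and 3 of 13 (18.5% of all), the latter being Ccr10, Cxcr3 and 1427419_x_at of Ccr9. The differences in that model ran from -0.50 to 0.51. Their 95% intervals, from -0.87 to 0.88 at the outermost, lay inside a 2-fold change in either direction. Those of Ccr7 and S1pr1 rest in part on values under the floor and do not bound a change in experiment 1. All count the 2 repeats of experiment 2 as separate samples. Without the experiment in the model the intervals reached from -1.71 to 1.53. A miss of the threshold does not show that a receptor was the same in both conditions.

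Shares by direction lay near those of all probe sets. In all 3 pairs, 4 of the 13 probe sets were higher in culture (23.1% of all) and 4 were lower (24.9% of all). The ex vivo and cultured arrays did not overlap for Cxcr5 and S1pr4 only, 2 of 13 against 20.0% of all, and an exact permutation test over 2 and 3 arrays cannot go below p = 0.1. The interaction of culture and experiment was called for 0 of 13 receptor probe sets and for 0% of all. At an unadjusted p under 0.05 it took in 2 of 13, both of Ccr9 (1421920_a_at and 1427419_x_at), against 6.59% of all. The median difference with the experiment in the model was 0.00 over the 13 and -0.02 over all tested probe sets.

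Several receptors differed between the 2 experiments. With culture in the model, 5 of the 11 probe sets that reached the floor on all 5 arrays passed the test for experiment 2 minus experiment 1 (45.5%), against 26.6% of the 27286 such probe sets. Cxcr4 was higher in experiment 2 by 0.67 ± 0.12 (SE, 1.60-fold, adjusted p = 0.0150), Ccr10 by 0.72 ± 0.15 (adjusted p = 0.0217) and 1442758_at of Ccr9 by 0.51 ± 0.11 (adjusted p = 0.0216). Cxcr3 was lower in experiment 2, with a difference of -0.88 ± 0.13 (adjusted p = 0.00910), as was 1427419_x_at of Ccr9, with -0.88 ± 0.15 (adjusted p = 0.0127). Cxcr5, Ccr2, S1pr4 and the other 3 Ccr9 probe sets did not pass.

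S1pr1 and Ccr7 passed too (adjusted p = 0.00934 and 0.0202), which made 7 of 13 (26.8% of all tested). Both had entered the test only through the arrays of experiment 2, so these 2 calls carry no weight in the count. With the floor in place of their values in experiment 1, S1pr1 was at least 1.74-fold and Ccr7 at least 1.34-fold higher in experiment 2.

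The difference between experiments was larger in size than that with culture for 8 of the 11, with median sizes of 0.38 and 0.23, against 0.27 and 0.15 over all such probe sets. The count of 7 was 7 without the first cultured array of experiment 2 and fell to 3 without the second. The calls did not hold when any other array was left out, which leaves 1 array in experiment 1 or 1 ex vivo array. The share over all probe sets was not counted in these fits, so the drop cannot be read as particular to the receptors. RNA quality, given above, moved with the experiment. T and NK cell markers summed to 684 and 651 in experiment 1 and to 897, 1137 and 952 in experiment 2. Of 8 tested, 2 were called as higher in experiment 2, against 1494 of 13578 genes called as higher and 1919 as lower. This was not particular to them, as 2 of 8 dendritic cell, 3 of 9 PC and 2 of 11 B cell and precursor markers were called as higher, and 1 of the last as lower. Of the T and NK cell list, Cd3e, Lck, Trac, Nkg7, Gzmb and Klrb1c were under the filter or not measured. The part of RNA quality or of other cells in the receptor levels was not tested.

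**Figure D3:**
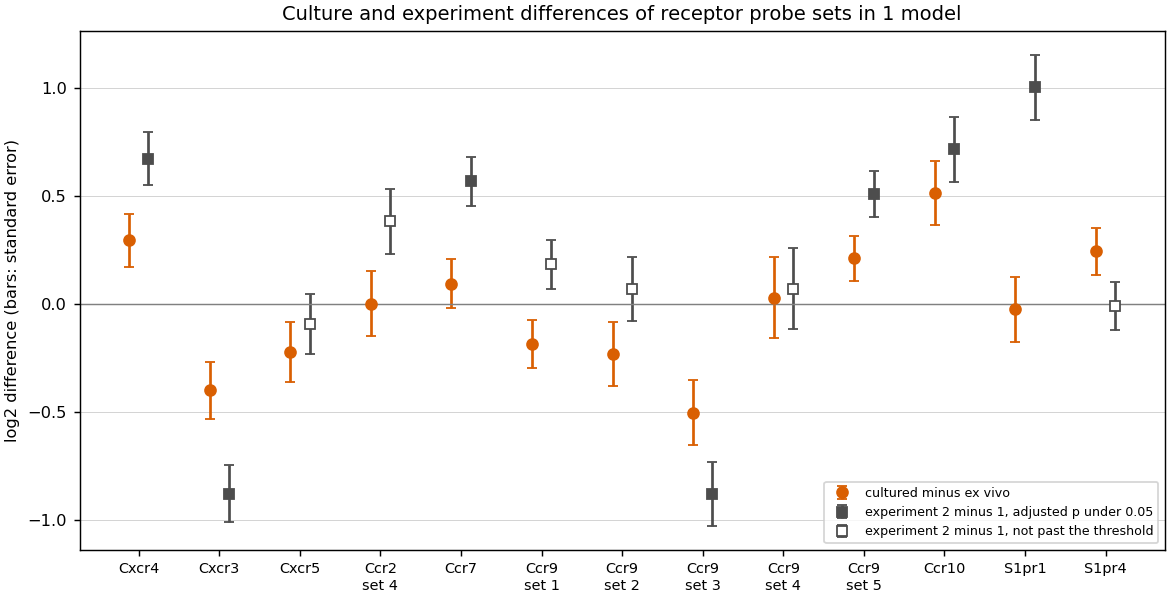
Log2 differences with their standard errors from 1 limma model of culture and experiment, for the 13 tested receptor probe sets. Circles are cultured minus ex vivo, squares experiment 2 minus experiment 1, filled where the adjusted p was under 0.05. Of the squares 7 are filled, those of Ccr7 and S1pr1 against values under the floor in experiment 1, and the circles lie between -0.50 and 0.51.

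For the 4 receptors whose brightest probe set spanned over 1 log2 unit, the genes with the nearest pattern over the 5 arrays were found by the root mean square difference of mean-centred log2 levels. For Cxcr4 these were Ago3 (0.0247), Alg6 (0.0315) and Eif1ax (0.0401), for Cxcr3 Mrpl52, Ccdc71l and Ndufa7 (0.0490 to 0.0559), for Ccr10 Phf3, Rala and Pou5f2 (0.0460 to 0.0749), and for S1pr1 C2cd5, Ebf1 and Frs3os (0.0445 to 0.0559). All rest on the same 5 arrays, and the span and pattern of S1pr1 rest in part on its values under the floor in experiment 1.

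The ligands Cxcl12 and Cxcl10 rose in culture with the experiment in the model. By gene, each represented by its brightest tested probe set, 2 of 6 tested chemokine ligands were called as higher in this model and 0 as lower, against 1.13% and 0.611% of 13578 genes. Without the experiment in the model 0 of 6 were called, against 0.0147% and 0.0442%. Cxcl12, the ligand of Cxcr4 and Ackr3, was 5.49 and 5.55 ex vivo and 9.06, 9.58 and 10.14 after culture, with both ex vivo arrays under the floor. It was at least 15.4-fold higher in culture, against the floor (adjusted p = 0.00444, and 0.0606 without the experiment). Cxcl12 had entered the test only through the cultured arrays, so its call carries no weight in the count of ligands. A second Cxcl12 probe set, also under the floor ex vivo, was at least 19.8-fold higher (adjusted p = 0.00377), and 1 more had a difference of 1.97 (adjusted p = 0.183). Stromal markers rose on the same arrays, 11 of 18 being called as higher and 1 as lower in this model. Of these, Cav1 was under the floor on both ex vivo arrays and entered the test only through the cultured arrays. Its call likewise carries no weight in that count. ST2 cells are stromal cells. The part of their RNA in the Cxcl12 signal was not tested.

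Cxcl10, a ligand of Cxcr3 induced by interferon, was 8.35 and 7.51 ex vivo and 9.88, 8.79 and 8.78 after culture. It rose by 1.38 ± 0.12 (SE, adjusted p = 0.00975), but missed the threshold without the experiment in the model (1.22, adjusted p = 0.734). Its receptor Cxcr3 was lower in all 3 pairs, as were 24.9% of all tested probe sets, and was not called. The part of stromal RNA in the Cxcl10 signal was not tested. Ccl25, the ligand of Ccr9, had a difference of 0.16 (adjusted p = 0.537). The Ccr10 ligands Ccl27a and Ccl28 had differences of 0.0075 (adjusted p = 0.988) and -0.09 (adjusted p = 0.747).

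Scavenger receptors, which take up chemokines without signalling through G proteins, held the only call among the 12 tested genes of the other chemokine and S1P receptors, against 1.13% of all genes called as higher with the experiment in the model. Without the experiment 0 of 12 were called. Ackr4, which removes Ccl19, Ccl21 and Ccl25, was 8.03 and 8.25 ex vivo and 8.79, 9.60 and 9.75 after culture. It rose by 1.14 ± 0.18 (SE, adjusted p = 0.0485) with the experiment in the model, as did a second probe set (1.08, adjusted p = 0.0401), while 1 more did not pass (0.18, adjusted p = 0.566). The Ackr4 call was absent without the experiment (adjusted p = 0.509), and it was lost in the model with the experiment when the repeats were averaged (adjusted p = 0.109) or when the first or the second repeat was left out (adjusted p = 0.0899 and 0.143). Ackr3, which removes Cxcl12, was 6.95 and 7.22 ex vivo and 8.29, 8.13 and 7.88 after culture. Every cultured array was above both ex vivo arrays, but the difference of 1.02 ± 0.17 missed the threshold (adjusted p = 0.0564). These genes too are expressed in stromal cells, whose markers moved with culture, and the part of stromal RNA was not tested.

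**Figure D4:**
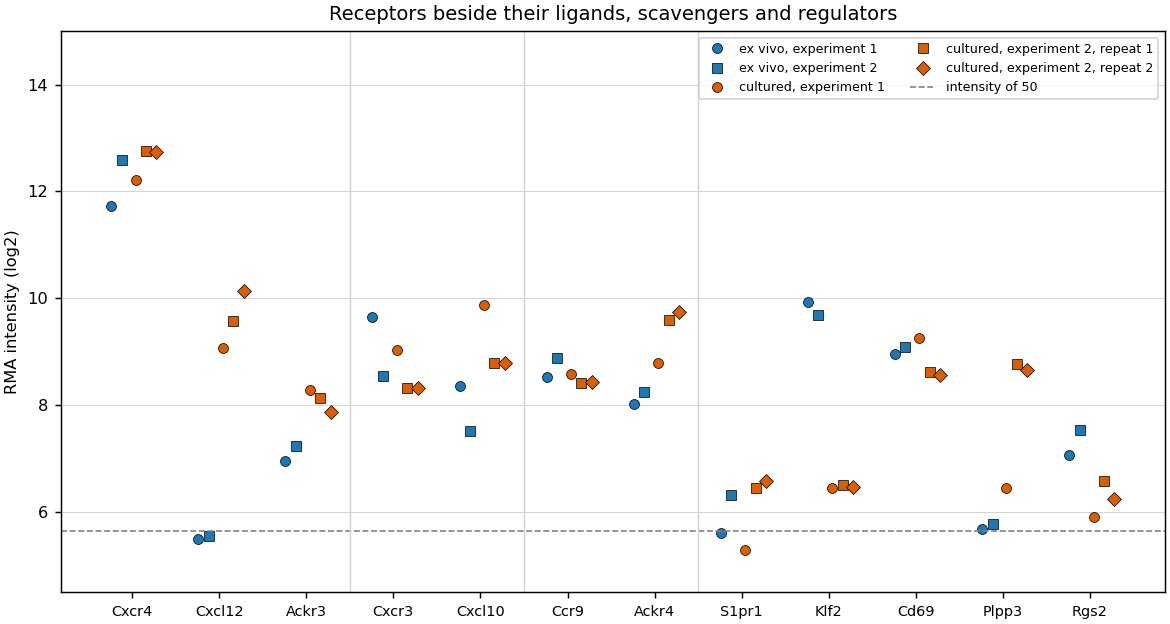
Log2 RMA intensity on the 5 arrays of Cxcr4, Cxcr3, Ccr9 and S1pr1, each followed by genes of its ligands, scavengers or regulators, with 1 brightest tested probe set per gene and vertical lines between the families. The dashed line is an intensity of 50. Cxcl12 is higher and Klf2 lower on all 3 cultured arrays than on both ex vivo arrays, while Cxcr4 and S1pr1 overlap. Levels of different genes are not comparable.

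Around S1pr1, the transcription factor Klf2, which is known to drive S1pr1 in T cells, fell steeply. Klf2 was 9.94 and 9.68 ex vivo and 6.44, 6.49 and 6.47 after culture, a difference of -3.34 ± 0.14 (SE, adjusted p = 0.0184) without and -3.32 ± 0.12 (adjusted p = 0.00117) with the experiment in the model. It was the only called gene of 9 regulators in either model, against 0.0442% and 0.611% of all genes called as lower. Without the experiment the call was lost when either ex vivo array or either cultured array of experiment 2 was left out (adjusted p from 0.224 to 0.473), and with it the call held without either of the latter. S1pr1 over the same arrays had a difference of -0.02. Cd69, a surface protein that pulls S1pr1 into the cell, was 8.96 and 9.08 ex vivo and 9.25, 8.61 and 8.56 after culture (-0.15 ± 0.19, adjusted p = 0.722).

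None of the 9 genes of S1P synthesis, export and breakdown was called in either model. Of all genes, 1.13% were called as higher and 0.611% as lower with the experiment in the model, and 0.0147% and 0.0442% without it. The largest differences among the 9 were those of Plpp3 and Plpp1, phosphatases that dephosphorylate S1P outside the cell. Plpp3 was 5.69 and 5.78 ex vivo and 6.45, 8.77 and 8.66 after culture (2.00 ± 0.46, adjusted p = 0.109), and Plpp1 had a difference of 0.54 ± 0.13 (adjusted p = 0.115). Of 24 tested genes of receptor signalling and desensitisation 1 was called, with the experiment in the model, against 0.611% of all genes called as lower. It was Rgs2, a brake on G protein signalling. Rgs2 was 7.06 and 7.53 ex vivo and 5.91, 6.57 and 6.23 after culture, and fell by 1.14 on the log2 scale (SE 0.14, adjusted p = 0.0276). The call was absent without the experiment (adjusted p = 0.484) and when the second cultured array of experiment 2 was left out (adjusted p = 0.0888). Medians with the experiment in the model were 0.30 for the ligands, 0.17 for S1P metabolism, -0.07 for signalling, -0.06 for regulators, -0.10 for the other receptors and 0.00 for the 9 receptors, against -0.05 over all genes.

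Promoter sequence is shown for 3 receptors, Cxcr4 and S1pr4 with higher and Cxcr3 with lower values in all 3 pairs, since the culture was held at physiological oxygen and Klf2 fell. The windows are the 250 bases before the start, from RefSeq on GRCm38.p6, and 5 of the 9 receptors matched a promoter there. Capitals mark the core word of the hypoxia-inducible factors (ACGTG or GCGTG, either strand) and that of Krüppel-like factors (CACCC, either strand, hence GGGTG on the printed strand). The first occurs in 38.6% and the second in 52.0% of 32851 promoter windows of this length, and no 2 matches overlap.
Cxcr4, chr1:128592300-128592549, minus strand: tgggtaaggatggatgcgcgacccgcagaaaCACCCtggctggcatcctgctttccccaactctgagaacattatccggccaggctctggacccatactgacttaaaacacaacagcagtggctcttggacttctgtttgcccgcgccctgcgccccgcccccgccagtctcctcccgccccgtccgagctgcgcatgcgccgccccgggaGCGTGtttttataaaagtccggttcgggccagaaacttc
Cxcr3, chrX:101734148-101734397, minus strand: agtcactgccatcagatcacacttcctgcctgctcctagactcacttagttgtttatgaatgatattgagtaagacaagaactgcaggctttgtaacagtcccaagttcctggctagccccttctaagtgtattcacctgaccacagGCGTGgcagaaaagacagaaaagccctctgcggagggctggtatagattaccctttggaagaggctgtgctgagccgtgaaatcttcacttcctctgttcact
S1pr4, chr10:81500138-81500387, minus strand: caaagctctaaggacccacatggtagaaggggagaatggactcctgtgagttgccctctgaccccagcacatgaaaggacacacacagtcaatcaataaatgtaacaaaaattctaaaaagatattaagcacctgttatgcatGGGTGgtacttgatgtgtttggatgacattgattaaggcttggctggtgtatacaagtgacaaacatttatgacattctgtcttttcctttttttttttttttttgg

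The Cxcr4 window held a hypoxia word beginning 39 bases before the start and a Krüppel-like word beginning 219 bases before it. Cxcr3 held a hypoxia word 103 bases before the start and no Krüppel-like word, and S1pr4 held a Krüppel-like word at 107 bases, on the opposite strand, and no hypoxia word. Ccr9 held a Krüppel-like word at 73 bases, and Ccr2 held neither. Both words are common, and a match does not show that a factor binds there. No promoter was matched for Cxcr5, Ccr7, Ccr10 or S1pr1.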

How the data were processed

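RNA of 5 samples (2 ex vivo, 3 cultured) was hybridised to Affymetrix mouse GeneChip arrays. The authors ran RMA (background correction, normalization between arrays, summary by probe set) in the affy package. GCOS is also named in the submitters' processing notes, and no version of these tools was found in the sources. What was deposited is a table of linear intensities, with array medians of 87.05 to 94.14, and log2 was taken of them here. From the 45101 probe sets, 64 controls were removed, and of the rest 34945 carry 1 gene symbol, 932 several and 9160 none listed. The number of arrays limits the precision.

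Probe sets reaching an intensity of 50 on 2 or more arrays (30477) entered limma 3.58.1 under R 4.3.3 (lmFit, eBayes, two-sided, Benjamini-Hochberg adjustment over all of them, adjusted p under 0.05) for culture, for culture with the experiment as a replicate block, for the experiment, and for their interaction (1 residual degree of freedom). The experiment numbers of the labels pair the samples. Deviations from the group means correlated at 0.749 in experiment 1 and at 0.558 and 0.719 in experiment 2, values that are not independent because the 2 ex vivo deviations mirror each other. This step was also tested on simulated data.

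All receptors were named. Of each other list, up to 4 members called with the block were eligible by size of difference, or up to 2 where none was called, besides partners of a receptor. The ligands Ccl25, Ccl27a and Ccl28 were named as such partners. Receptors and gene lists were chosen with earlier results of these data known. The alternatives were the block, averaging the repeat arrays, other filters, scalings and moderation, another threshold, a pseudocount and leaving out each array. Promoter sequences are from RefSeq (GRCm38.p6). The array values come with no genome build. Figures were drawn with matplotlib 3.10.9.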

Additional observations from a re-analysis of the deposited data

How the results depend on the processing

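No receptor probe set was called for culture under any of the 18 alternatives, and none for the interaction under the 8 alternatives run for it. In 5 of the alternatives a difference cannot move by construction. Under the other 13, 148 of the 169 differences of tested receptor probe sets had the same direction and 21, none of them called, reversed. The count over all probe sets was 14 over all arrays, 550 with the experiment as a replicate block, 0 with the repeat arrays averaged, 187 with both, 5 with no filter, 31 with an intensity of at least 100, 3 in the 10000 brightest probe sets, 618 at an unadjusted p under 0.01 and 3 with a pseudocount of 16. It ranged from 0 to 257 when each array was left out, and was 271 and 153 with the block and without the first or second cultured array of experiment 2, a setting chosen after seeing the data. The count of 7 receptor probe sets that differed between experiments was 3 among the 10000 brightest. There only Cxcr4, Cxcr3, Ccr10 and 1421920_a_at of Ccr9 were tested, the rest being removed by that filter. Without the first or the second cultured array of experiment 2 the count was 7 and 3. The calls did not hold when any other array was left out. S1pr1 changed sign to -0.023 with the replicate block, -0.058 with the repeats averaged, with or without the block, and -0.0245 and -0.092 with the block and without the first or second repeat. Ccr2 (1460067_at) changed to -0.024 with the repeats averaged, with or without the block, and -0.10 with the block and without the first repeat. Ccr9 (1436065_at) changed to -0.0086 under quantile normalization, -0.0098 under median centring and -0.12 with the block and without the second repeat. Without each array in turn, Cxcr4 (1448710_at) ranged from -0.018 to 0.84, Cxcr3 (1449925_at) from -1.09 to 0.0022, Ccr2 (1460067_at) from -0.10 to 0.24, Ccr7 from -0.033 to 0.41, S1pr1 from -0.22 to 0.55, Ccr9 1421919_a_at from -0.31 to 0.0007 and 1436065_at from -0.12 to 0.16. The cause of these shifts was not tested. Where a group was left with 1 array, it was assumed to vary like the other. The block changed no receptor call, but it did change those of Cxcl12, Cxcl10, Ackr4 and Rgs2.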
